A study of Mus musculus with 12 samples.

Results

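The 8 kinases described here phosphorylate SR proteins, the serine- and arginine-rich splicing factors, or belong to the same group of kinases. They are Clk1, Clk2, Clk3, Clk4, Srpk1, Srpk2, Dyrk1a and Prp4k, chosen by gene name from the 57132 features of a count table of mouse striatum. By symbol 7 were found, and Prp4k was found under its current symbol Prpf4b through its RefSeq synonym. The choice was made with the genotype comparison of these libraries known, so each difference between genotypes given here is a description and not an independent test. All 8 were kept by the filter on low values, a CPM (the count of a feature scaled to the size of its library) of at least 0.5 in at least 3 libraries, which 13902 features passed.

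Striatum was sequenced from 6 mice labelled TAAR5-KO, a knockout of the trace amine-associated receptor Taar5, and from 6 wild-type (WT) littermates, all C57Bl/6 and 10 months old, with no treatment named for either group. The methods give males and females in both groups, but the columns of the table carry library numbers (NK1 to NK6 for TAAR5-KO, NK7 to NK12 for WT) that are tied to neither an animal nor a sex. The tissue was what was left of a coronal brain slice without its cortex, and in such bulk RNA fewer cells of a type and less RNA per cell cannot be told apart. Taar5 had 1 to 6 counts in each library labelled TAAR5-KO and 0 to 2 counts in those labelled WT, which goes against the labels, so genotypes are given as labels throughout. These counts are few, and counts from a part of the gene that the knockout leaves in place would check nothing.

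CDC-like kinases (CLK) sit in the nucleus and phosphorylate the RS domains of SR proteins, which releases these factors from nuclear speckles, their storage sites, toward sites of splicing. SR protein kinases (SRPK) act mainly in the cytoplasm and prepare newly made SR proteins for import into the nucleus. Dyrk1a phosphorylates SR proteins and many other substrates and is sensitive to gene dose in brain development, and Prp4k acts on the spliceosome itself. Transcripts of Clk1 and Clk4 are well known for introns that stay unspliced while the RNA is held in the nucleus.

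Clk1 (ENSMUSG00000026034.18) lies on the minus strand of GRCm39 at chr1:58449348-58463225, with 22 annotated transcripts, of which 3 are protein coding and 7 are retained-intron transcripts. Clk4 (ENSMUSG00000020385.17) lies on the plus strand at chr11:51152557-51172593 and has 57 transcripts, of which 12 are protein coding, 7 are retained-intron transcripts and 38 are annotated for nonsense-mediated decay. In Clk1 40.0% and in Clk4 41.6% of the exon bases occur only in retained-intron transcripts. This share is reached by 7.39% and 6.81% of all protein-coding genes of the count table, whether or not they passed the filter. The counts sum over all exon bases, so spliced mRNA and RNA with a retained intron cannot be told apart in them. The same share was 54.8% in Clk2 (chr3:89072102-89084228, plus strand), 37.2% in Clk3 (chr9:57657907-57673143, minus strand), 49.0% in Srpk1 (chr17:28806622-28841683, minus strand) and 31.9% in Srpk2 (chr5:23708262-23889615, minus strand). It was 23.4% in Dyrk1a (chr16:94370869-94496376, plus strand) and 4.02% in Prpf4b (Prp4k; chr13:35059285-35090047, plus strand). Clk1 and Clk4 also share a low GC content of their exons, 39.6% in both, beside 40.9% in Srpk2, 41.0% in Prpf4b, 46.0% in Dyrk1a, 46.9% in Srpk1, 50.5% in Clk2 and 53.8% in Clk3.

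In the annotation of the count table no gene overlapped the exons of Clk1. Gm55882, a small RNA gene, overlapped 1.02% of those of Clk4 on the same strand, and Gm36839, a long non-coding RNA, overlapped 0.427% of those of Prpf4b on the opposite strand. On the opposite strand Edc3, which codes for an activator of mRNA decapping, overlapped 15.2% of the exon bases of Clk3, and Kmt2e overlapped 6.99% of those of Srpk2. In the later annotation GENCODE M39, Lhfpl5 also shared 8.90% of the exon bases of Srpk1 and Gm32510 shared 5.36% of those of Clk3. The strand of Lhfpl5 and Gm32510 was not recorded here. The libraries were directional, but the strand setting of the counting is not given in the sources used here, so Clk3, Srpk2 and Srpk1 are uncertain by the reads of these neighbours. A search of the annotated transcripts for copies of at least 90% identity over 150 bases found none that covered 5% or more of the exons of a member, other than genes that overlap it or lie beside it at the same locus.

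The start regions of the CLK genes are shown because Clk4 passed the test of the genotype labels while Clk2 and Clk3 did not. RefSeq windows of 250 bases before to 50 bases after the start (GRCm38.p6) were given for 7 of the 8 kinases, and Clk1 was without an entry. The windows are chr11:51262864-51263163 (plus strand) for Clk4, chr3:89164545-89164844 (plus strand) for Clk2 and chr9:57765065-57765364 (minus strand) for Clk3. Capitals mark every match on either strand to the letters TGACGTCA of a CRE, CCGGAAG of an ETS motif, CCAAT of a CCAAT box, GGGCGG of a GC box and TATAAA of a TATA box.
Clk4: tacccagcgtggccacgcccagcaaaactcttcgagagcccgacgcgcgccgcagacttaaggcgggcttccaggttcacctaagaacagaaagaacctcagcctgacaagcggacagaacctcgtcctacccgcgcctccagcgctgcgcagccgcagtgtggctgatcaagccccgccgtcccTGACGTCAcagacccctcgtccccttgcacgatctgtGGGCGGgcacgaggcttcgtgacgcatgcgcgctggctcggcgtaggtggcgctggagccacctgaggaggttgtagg
Clk2: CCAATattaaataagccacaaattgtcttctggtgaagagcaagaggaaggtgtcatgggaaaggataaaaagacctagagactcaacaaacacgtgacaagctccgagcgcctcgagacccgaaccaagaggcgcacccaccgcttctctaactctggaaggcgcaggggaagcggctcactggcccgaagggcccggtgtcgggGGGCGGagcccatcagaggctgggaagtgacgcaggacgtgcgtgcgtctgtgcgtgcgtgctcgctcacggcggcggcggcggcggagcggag
Clk3: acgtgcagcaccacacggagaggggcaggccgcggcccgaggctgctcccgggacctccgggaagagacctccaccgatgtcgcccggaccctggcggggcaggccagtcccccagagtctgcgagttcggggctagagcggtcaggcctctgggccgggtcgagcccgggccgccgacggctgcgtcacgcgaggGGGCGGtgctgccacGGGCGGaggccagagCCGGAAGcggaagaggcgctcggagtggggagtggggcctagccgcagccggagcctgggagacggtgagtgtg
Clk4 held a CRE, the sequence known to be bound by CREB, 65 bases before its start, and a GC box 28 bases before it. A CRE was found in 1.79% of all 32851 windows of the table and in none of the other windows of these kinases. Clk2 held a CCAAT box 250 bases before its start (37.4% of all windows) and a GC box 44 bases before it. Clk3 held GC boxes 54 and 39 bases before its start and an ETS motif 24 bases before it (8.86% of all windows). A GC box was found in 35.7% of all windows. No motif overlapped another in these 3 windows, and none was tested for a bound factor or for a part in the difference between labels.

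Total counts ran from 11269915 to 34824450 per library, of which 64.3% to 88.1% fell on ribosomal RNA features, which left 1819907 to 6399188 counts for other genes. The kinases had between 15 counts (Clk2) and 1567 counts (Srpk2) in a library, and the SE of the log2 fold change was largest for Clk2 (0.172) and smallest for Dyrk1a (0.0875). Levels are given as CPM on the TMM scale (trimmed mean of M values), a scale that adjusts library sizes to the bulk of the features.

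Per length of the merged exons, Srpk2 and Dyrk1a had the highest levels of the 8 kinases and Clk2 and Clk3 the lowest. This length includes bases found only in retained-intron transcripts, from 4.02% of it in Prpf4b to 54.8% in Clk2. The order of the kinases therefore depends on the annotation, and levels were not computed without these bases. In libraries labelled WT the mean level per kilobase was 2.44 ± 0.162 CPM for Srpk2 and 2.09 ± 0.107 CPM for Dyrk1a (SD, n = 6), followed by 1.46 ± 0.185 for Prpf4b, 1.28 ± 0.173 for Clk1 and 1.06 ± 0.146 for Clk4. Srpk1 had 0.589 ± 0.0588 CPM per kilobase, Clk3 0.454 ± 0.0933 and Clk2 0.420 ± 0.0713. Over all 12 libraries the ranges of neighbours in this order overlapped, except between Clk4 and Srpk1. Within libraries the order was steadier. Srpk2 was above Dyrk1a, Dyrk1a above Prpf4b, Clk1 above Clk4, Clk4 above Srpk1 and Srpk1 above Clk3 in 12 of 12 libraries. Clk3 was above Clk2 in 8 of them, and Prpf4b above Clk1 in 6, so that neither pair kept its order. In libraries labelled TAAR5-KO the mean of Clk1, 1.89 ± 0.199 CPM per kilobase, was above that of Prpf4b, 1.61 ± 0.208.

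Clk1 and Clk4 were higher in libraries labelled TAAR5-KO, while the other 6 kinases differed by less than the test could call. Clk1 ran from 12.5 to 17.4 CPM with a median of 15.5 in libraries labelled TAAR5-KO, and from 8.96 to 12.4 CPM with a median of 10.3 in those labelled WT. Every library labelled TAAR5-KO was above every library labelled WT, with NK6 (12.5) and NK9 (12.4) closest to each other. Clk1 was 1.47-fold higher, a log2 fold change of 0.56 with a standard error (SE) of 0.108 and an adjusted p of 0.00035 in the likelihood ratio test of edgeR. Clk4 ran from 7.77 to 9.12 CPM with a median of 8.11 in libraries labelled TAAR5-KO, and from 5.02 to 7.34 CPM with a median of 6.11 in those labelled WT. The groups of Clk4 did not overlap either, and its 6 libraries labelled TAAR5-KO lay close together (8.23 ± 0.470 CPM, against 6.14 ± 0.847 in those labelled WT). Clk4 was 1.38-fold higher, a log2 fold change of 0.47 with an SE of 0.106 and an adjusted p of 0.00564 in the same test of edgeR.

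**Figure D1:**
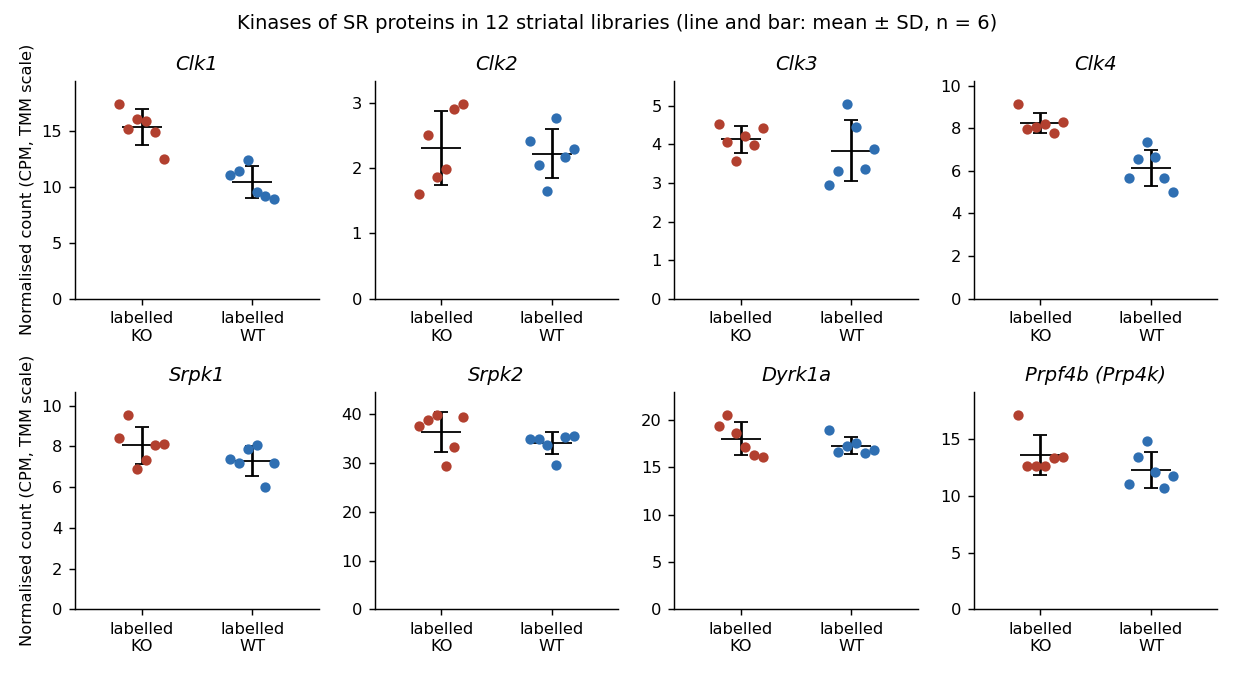
Normalised count (CPM on the TMM scale, axis from 0) of each kinase in the 12 libraries, 1 point per library, with the mean and SD of the 6 libraries of each genotype label as line and bar. The 6 points labelled KO lie above all points labelled WT for Clk1 and Clk4 and overlap them for the other 6 kinases.

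Clk2 and Clk3, the CLK genes with the lowest counts, overlapped between the labels. Clk2 ran from 1.61 to 2.98 CPM with a median of 2.24 in libraries labelled TAAR5-KO and from 1.64 to 2.77 CPM with a median of 2.23 in those labelled WT. The fitted log2 fold change of Clk2 was 0.11 with a 95% interval from -0.23 to 0.44 (adjusted p = 0.869, likelihood ratio test of edgeR). Clk3 had medians of 4.14 and 3.62 CPM, and its libraries labelled WT, from 2.96 to 5.04 CPM, spread wider than those labelled TAAR5-KO, from 3.57 to 4.52 CPM. For Clk3 the log2 fold change was 0.18, with an interval from -0.07 to 0.43 (adjusted p = 0.619, same test of edgeR).

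Srpk1, the ubiquitous SR protein kinase, ran from 6.90 to 9.54 CPM with a median of 8.08 in libraries labelled TAAR5-KO and from 6.01 to 8.08 CPM with a median of 7.29 in those labelled WT. For Srpk1 this gave a log2 fold change of 0.16 with an interval from -0.04 to 0.36 (adjusted p = 0.558, likelihood ratio test of edgeR). Srpk2, known for its high level in brain, had medians of 38.1 and 34.9 CPM, within ranges of 29.3 to 39.8 and 29.5 to 35.5 CPM. The log2 fold change of Srpk2 was 0.09, with an interval from -0.10 to 0.27 (adjusted p = 0.773, same test of edgeR). Per length Srpk2 was well above Srpk1 in every library, by 2.00 ± 0.203 on the log2 scale in libraries labelled TAAR5-KO and by 2.06 ± 0.228 in those labelled WT.

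Dyrk1a was the steadiest of the 8 in libraries labelled WT, from 16.5 to 18.9 CPM with a median of 17.0, against 16.1 to 20.5 CPM with a median of 17.9 in those labelled TAAR5-KO. For Dyrk1a the log2 fold change was 0.05, with an interval from -0.12 to 0.22 (adjusted p = 0.883, likelihood ratio test of edgeR). Prpf4b (Prp4k) ran from 12.6 to 17.1 CPM with a median of 12.9 in libraries labelled TAAR5-KO and from 10.6 to 14.8 CPM with a median of 11.9 in those labelled WT, with NK1 alone above 15 CPM. Prpf4b had a log2 fold change of 0.16, with an interval from -0.04 to 0.36 (adjusted p = 0.577, same test of edgeR). The upper ends of the intervals of these 6 kinases, 0.22 to 0.44, lay below the estimates of Clk1 and Clk4, but apart from Dyrk1a they reached into the interval of Clk4, from 0.26 to 0.67.

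By the likelihood ratio test of edgeR 2 of the 8 kinases passed an adjusted p of 0.1, both higher in libraries labelled TAAR5-KO. Among all features tested 1.65% passed it in either direction and 0.957% with a higher level in libraries labelled TAAR5-KO. By the more conservative quasi-likelihood test of edgeR the same 2 kinases passed, Clk1 with an adjusted p of 0.0301 and Clk4 with 0.0638, where 0.453% of all features did. Groups that did not overlap, with libraries labelled TAAR5-KO higher, were found for these 2 kinases and for 0.619% of all features. Since the members were chosen with this contrast in view, nothing is read from these counts beside their background. All 8 kinases had a positive log2 fold change on the TMM scale, with a median of 0.16 against -0.01 over all features tested, while 6 of them were negative with library size as the only scaling and Srpk2 was negative with the GC trend of each library removed.

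**Figure D2:**
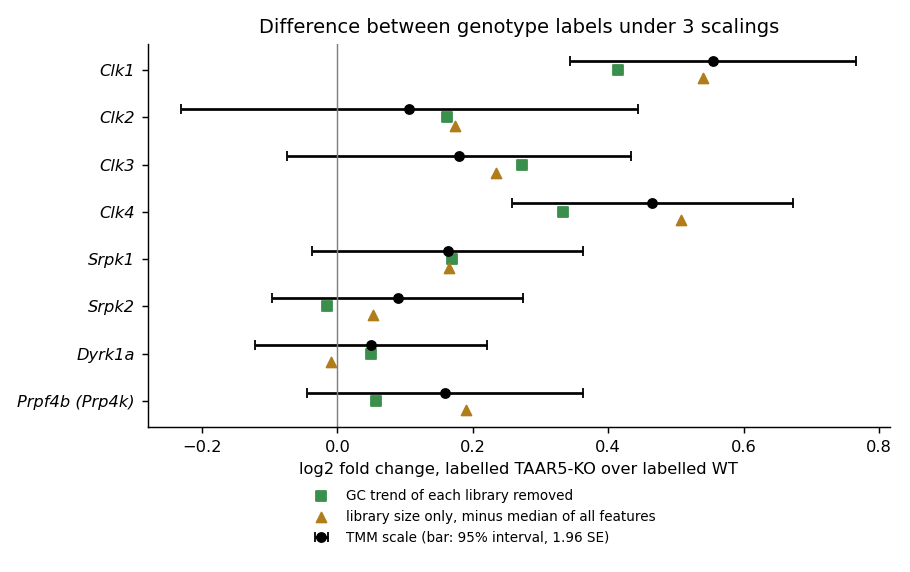
log2 fold change of each kinase between libraries labelled TAAR5-KO and WT on the TMM scale (black, with 95% interval), after removal of each library's trend with GC content (green), and with library size as the only scaling minus the median of all features (brown). Clk1 and Clk4 lie at 0.33 or above under all 3 scalings, and Srpk2 and Dyrk1a lie near 0.

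With library size as the only scaling, which lets the ribosomal RNA share of each library into the CPM, the median of all features moved to -0.49 and Clk1 and Clk4 no longer passed (log2 fold changes of 0.05 and 0.02, adjusted p of 0.953 and 0.985 in edgeR). The same scaling gave the other 6 kinases negative values. Relative to that median Clk1 was at 0.54 and Clk4 at 0.51, close to their values on the TMM scale.

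A ratio within a library is free of scaling between libraries, but not of their trends with GC content, which were not removed from it. Per length, the summed level of Clk1 and Clk4 over that of the other 6 kinases ran from 0.367 to 0.471 in libraries labelled TAAR5-KO and from 0.264 to 0.357 in those labelled WT, without overlap. Clk1 and Clk4 are the kinases that passed the genotype test, so this separation follows in part from their choice and is a description. On the log2 scale the means were -1.27 ± 0.130 and -1.68 ± 0.153 (SD, n = 6), a difference of 0.41. Clk1 made up 16.7 ± 1.63% of the summed level of the 8 kinases in libraries labelled TAAR5-KO and 13.1 ± 1.17% in those labelled WT, and Clk4 12.6 ± 0.593% and 10.8 ± 1.09%, with overlapping groups for both shares. Srpk2 held the largest share in both groups, 23.1 ± 2.14% and 25.0 ± 2.25%. The size of each share depends on the same merged exon lengths, which include bases found only in retained-intron transcripts. Clk1 over Clk4 differed by 0.13 on the log2 scale with overlapping groups, and Clk1 over Dyrk1a differed by 0.50 without overlap. The ratios of Clk1 to Clk2, Clk3, Srpk1, Srpk2 and Prpf4b, and those of Clk4 to each of the other 6 kinases, overlapped between the labels.

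**Figure D3:**
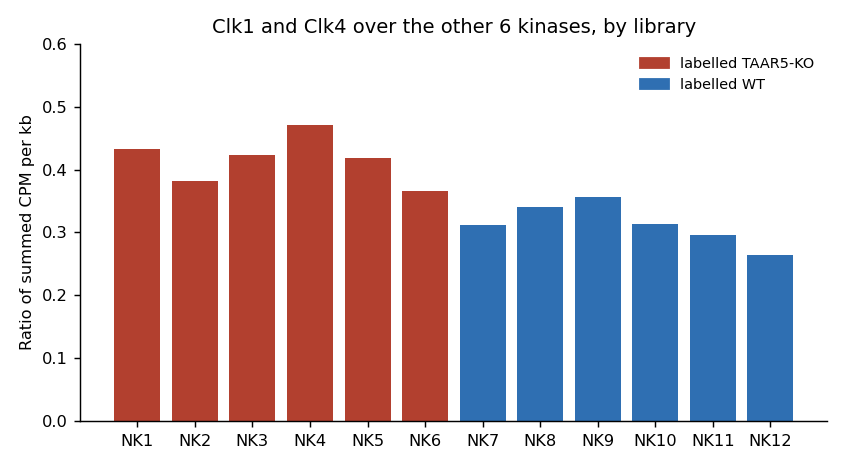
Summed CPM per kilobase of Clk1 and Clk4 divided by that of the other 6 kinases, 1 bar per library from NK1 to NK12, axis from 0. The 6 libraries labelled TAAR5-KO lie between 0.367 and 0.471 and the 6 labelled WT between 0.264 and 0.357.

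The libraries also differed in their relation to GC content. The GC slope of a library is the change of log2 CPM, relative to the mean of all libraries, for each 10 points of exon GC content. It was -0.0684 ± 0.0840 in libraries labelled TAAR5-KO and 0.0684 ± 0.0899 in those labelled WT (SD, n = 6; two-sided exact permutation p = 0.0173), so that features of low GC content, as Clk1 and Clk4 are, tended to read higher in the former. In the lowest quintile of features by GC content (28.3% to 42.8%), which holds Clk1, Clk4, Prpf4b and Srpk2, the median log2 fold change was 0.12 and 3.13% of features passed the likelihood ratio test with a higher level in libraries labelled TAAR5-KO. In the highest quintile, which holds none of the 8, 0.144% did. After the trend of each library was removed the log2 fold change was 0.41 for Clk1 (adjusted p = 0.0068, likelihood ratio test of edgeR) and 0.33 for Clk4 (adjusted p = 0.071), so that both still passed at a smaller size. Their groups still did not overlap, with log2 CPM of 3.64 to 4.00 against 3.30 to 3.57 for Clk1 and 2.92 to 3.05 against 2.57 to 2.82 for Clk4. Srpk2 turned from 0.09 to -0.01 by the same step, and Prpf4b went from 0.16 to 0.06.

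Within the genotype labels, a variation by which the members were not chosen, Clk4 ran against the GC slope of its library. With the mean of each label removed, Pearson's r over the 12 libraries was -0.83 (permutation p = 0.00083, adjusted p = 0.0199 over 24 relations) and Spearman's rho -0.67 (permutation p = 0.0194, adjusted p = 0.116). Without NK1 and NK12, the libraries of the most extreme slopes, r was -0.70. For Clk1 r was -0.75 (permutation p = 0.00917, adjusted p = 0.0528) and rho -0.71 (permutation p = 0.0158, adjusted p = 0.116), with r of -0.63 without NK1 and NK12. For Prpf4b r was -0.77 (permutation p = 0.011, adjusted p = 0.0528) and rho -0.46 (permutation p = 0.151, adjusted p = 0.329), with r of -0.71 without these libraries. Srpk2, also in the lowest quintile, had r of -0.14 (permutation p = 0.673, adjusted p = 0.681) and rho of 0.03 (permutation p = 0.925, adjusted p = 0.925). Clk2 had a positive r of 0.63 (permutation p = 0.0331, adjusted p = 0.113), and r was -0.37 for Clk3, -0.37 for Srpk1 and -0.45 for Dyrk1a. The slope is fitted over features that include these kinases, so features of low GC content tend by construction to run against it. The part of the GC slope in the difference between labels was not tested beyond the removal of the trend.

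**Figure D4:**
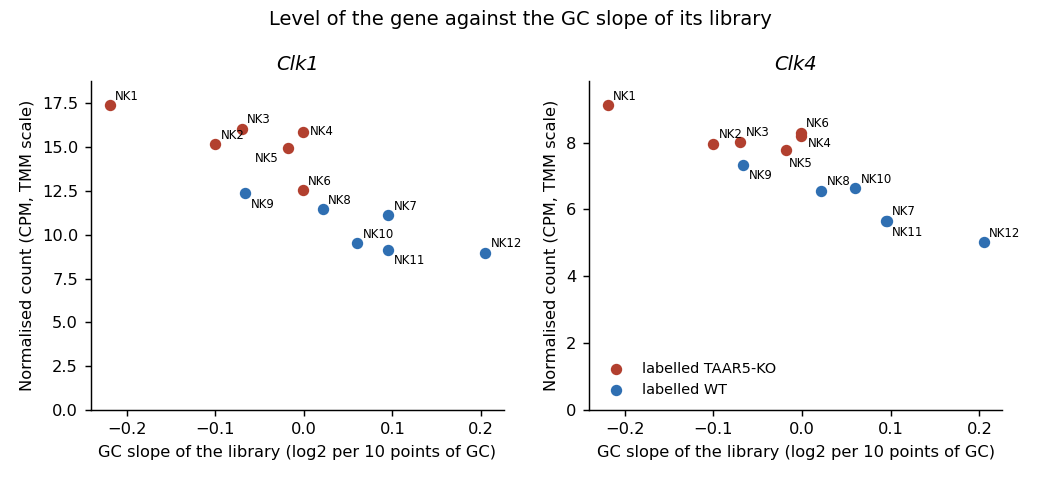
Normalised count (CPM on the TMM scale, axis from 0) of Clk1 and Clk4 against the GC slope of the library (log2 per 10 points of GC content), 1 point per library, coloured by genotype label. NK1, with the lowest slope, has the highest level of both genes, and NK12, with the highest slope, has the lowest.

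Other features of the libraries were set beside the kinases. The ribosomal RNA share was 82.1 ± 6.29% in libraries labelled TAAR5-KO and 76.9 ± 9.96% in those labelled WT (SD, n = 6; two-sided exact permutation p = 0.312). Within the genotype labels Clk4 followed this share with r of 0.74 (permutation p = 0.0228, adjusted p = 0.0912) and rho of 0.66 (permutation p = 0.0593, adjusted p = 0.258). Without NK7 and NK12 its r was 0.48, and Clk1 had r of 0.47 (permutation p = 0.171, adjusted p = 0.342). With the share as a covariate the log2 fold changes were 0.49 for Clk1 (adjusted p = 0.0043) and 0.39 for Clk4 (adjusted p = 0.0425, likelihood ratio test of edgeR). Markers of cell types moved in part, in lists made with earlier results of these data known. The summed level of 6 spiny neuron markers, the main neurons of striatum, was 294 to 384 CPM and 176 to 327 CPM (exact permutation p = 0.0325, 0 of 6 past the likelihood ratio test). That of 6 microglia markers was 25.1 to 36.2 and 34.9 to 43.4 CPM (exact permutation p = 0.00433, 2 of 6 past the test and lower), and that of 6 oligodendrocyte markers 572 to 701 and 610 to 781 CPM (exact permutation p = 0.026, 0 of 6). Of 7 astrocyte markers 1 passed and was lower, with summed levels of 1041 to 1243 and 1146 to 1352 CPM (exact permutation p = 0.104). Markers of endothelium, cortical pyramidal neurons and choroid plexus had exact permutation p of 0.779, 0.972 and 0.574, with 0 of 5 past the test in each list, and the choroid plexus list, from 2.60 to 467 CPM, was the only list with a marker at 0 in a library. At an unadjusted p under 0.05 were 5 astrocyte, 4 microglia, 4 spiny neuron, 2 oligodendrocyte and 0 endothelium, pyramidal neuron or choroid plexus markers, and DESeq2 called 2 microglia, 1 astrocyte, 1 spiny neuron and 1 oligodendrocyte marker. The astrocyte, microglia and oligodendrocyte markers all had negative log2 fold changes and the spiny neuron markers positive ones on the TMM scale, although with library size as the only scaling none of the spiny neuron markers was positive and all 6 were above the median of all features. The part of these cell types in the levels of Clk1 and Clk4 was not tested.

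Of 10 long non-coding RNAs known to stay in the nucleus, 6 passed the likelihood ratio test and were higher in libraries labelled TAAR5-KO. Among all features tested 0.957% did so. Among protein-coding features 0.394%, 0.446% and 0.962% did so, for shares of retained-intron bases under 1%, 1% to under 20% and 20% or more. Features of other types thus did so more often, and the share among long non-coding RNAs alone was not computed. Clk1 and Clk4 were higher in these libraries as well. The summed level of the 10 was 1181 to 1719 CPM in libraries labelled TAAR5-KO and 784 to 1101 CPM in those labelled WT, without overlap (exact permutation p = 0.00216, the smallest that 6 against 6 can give). The list was made with earlier results of these data known, so this p-value describes the list and is not an independent test. Malat1 made up most of this sum, with means of 955 of 1369 CPM and 649 of 935 CPM, so the sum and the relations with it mostly reflect this gene. Past the likelihood ratio test were Malat1, a component of nuclear speckles, with a log2 fold change of 0.56 (adjusted p = 0.0101), Meg3 with 0.71 (adjusted p = 0.00289), Mirg with 0.63, Snhg11 with 0.63, Kcnq1ot1, which silences imprinted neighbours, with 0.52, and Ftx with 0.69. The other 4 did not pass this test of edgeR, with log2 fold changes of 0.34 for Rian (adjusted p = 0.103), 0.36 for Miat (adjusted p = 0.348), 0.02 for Neat1, the scaffold of paraspeckles (adjusted p = 0.987), and -0.25 for Pvt1 (adjusted p = 0.696). By the quasi-likelihood test of edgeR 5 of the 10 passed, without Kcnq1ot1 (adjusted p = 0.122). Within the genotype labels Prpf4b followed the summed level of this list with r of 0.83 (permutation p = 0.00295, adjusted p = 0.0354 over the 24 relations), rho of 0.75 (permutation p = 0.0137, adjusted p = 0.116) and r of 0.62 without NK1 and NK11. For Clk4 r was 0.73 (permutation p = 0.00899, adjusted p = 0.0528) and rho 0.73 (permutation p = 0.0193, adjusted p = 0.116), with r of 0.67 without these libraries. For Clk1 r was 0.54 (permutation p = 0.086, adjusted p = 0.206) and rho 0.60 (permutation p = 0.0645, adjusted p = 0.258), with r of 0.30 without them. These relations were not computed again with the GC trend of each library removed. The part of nuclear RNA content in the levels of the kinases was not tested.

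Around the 8 kinases, 40 of 42 listed genes of the same pathway passed the filter, 30 of them with a positive and 10 with a negative log2 fold change on the TMM scale. With library size as the only scaling none of the 40 was positive, and 30 were above the median of all features (-0.49). Past the likelihood ratio test of edgeR were 2 of the 40 (5.00%), both higher in libraries labelled TAAR5-KO. Over all features tested the share was 1.65% in either direction and 0.957% higher in these libraries. Srsf11, an SR-related splicing factor, ran from 15.2 to 18.2 CPM in libraries labelled TAAR5-KO and from 10.9 to 15.2 CPM in those labelled WT, a log2 fold change of 0.41 with an SE of 0.0943 (adjusted p = 0.00614). Tra2a, an SR-like activator of exon inclusion, ran from 10.9 to 18.7 and from 8.92 to 11.4 CPM, a log2 fold change of 0.47 with an SE of 0.121 (adjusted p = 0.0196). The groups of Srsf11 and Tra2a overlapped. Both were already known to pass this test when the lists were made. By the quasi-likelihood test of edgeR only Srsf11 passed (adjusted p = 0.0638), with Tra2a at 0.103.

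Of the 13 SR protein genes, the substrates of these kinases, 11 had a positive log2 fold change, 2 passed and the median was 0.21 on the TMM scale, against 10 positive and a median of 0.10 with the GC trend removed. At an unadjusted p under 0.05 in the likelihood ratio test were 7 of the 13. Of 14 genes for RS-domain proteins of speckles, such as Son and Srrm2, 13 had a positive value with a median of 0.16. None of these 14 passed the likelihood ratio test of edgeR, 6 had an unadjusted p under 0.05, as 1657 of all 13902 features had, and none passed in the quasi-likelihood test or DESeq2. Son, which organises speckles, ran from 54.8 to 62.8 CPM in libraries labelled TAAR5-KO and from 48.9 to 56.0 CPM in those labelled WT, a log2 fold change of 0.16 (adjusted p = 0.422, likelihood ratio test of edgeR). The kinases related by sequence, Dyrk1b to Dyrk3 and Hipk1 to Hipk4, had a median of -0.06 (0.04 with the GC trend removed), with 3 of 7 positive and none past the likelihood ratio test (1 at an unadjusted p under 0.05, none by the quasi-likelihood test or DESeq2). Dyrk4 and Srpk3 did not pass the filter. The 6 genes for protein phosphatase subunits and for the importin of SR proteins, Tnpo3, had a median of 0.03, with 3 of 6 positive and none past any of these tests or at an unadjusted p under 0.05.

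**Figure D5:**
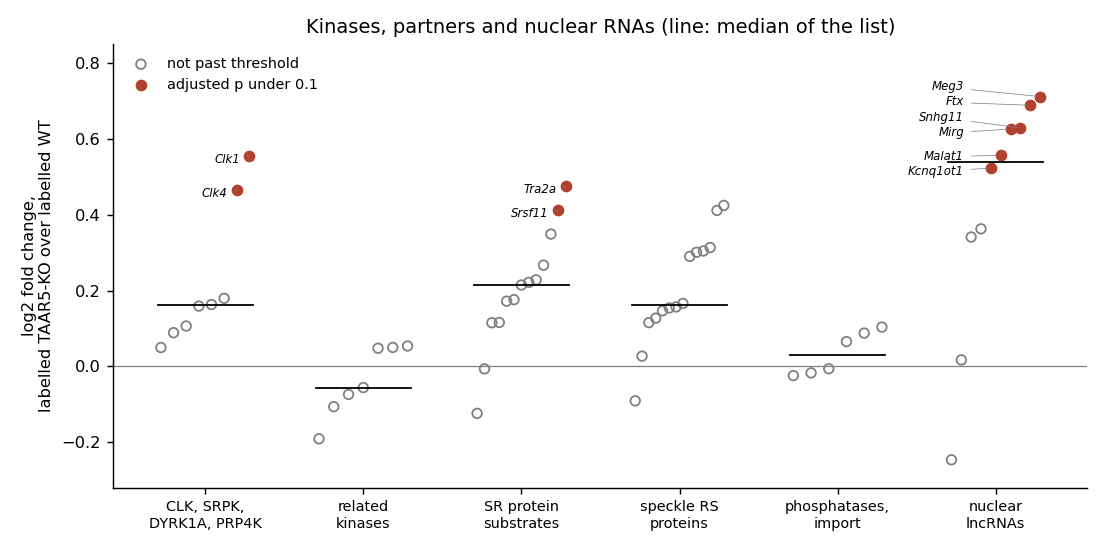
log2 fold change between libraries labelled TAAR5-KO and WT of the 8 kinases, of 4 lists of related genes and of 10 nuclear long non-coding RNAs (lncRNAs), 1 point per gene, with a line at the median of each list and filled points for an adjusted p under 0.1 in the likelihood ratio test. On the TMM scale shown, medians run from -0.06 for related kinases (0.04 with the GC trend removed) to 0.54 for the nuclear RNAs, with 0.16 for the 8 kinases.

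Whether the kinases vary together was examined within the genotype labels, over 28 pairs and 12 libraries. None of the pairs passed an adjusted permutation p of 0.05. The strongest positive relation was that of Clk4 and Prpf4b, with r of 0.76 (permutation p = 0.00585, adjusted p = 0.0819) and rho of 0.80 (permutation p = 0.00685, adjusted p = 0.0959), with r of 0.87 without NK11 and NK12 and of 0.42 with the GC trend of each library removed (permutation p = 0.2, adjusted p = 0.568). Clk1 and Clk2 ran in opposite directions, with r of -0.73 (permutation p = 0.0041, adjusted p = 0.0819) and rho of -0.73 (permutation p = 0.00315, adjusted p = 0.0882), with r of -0.72 without NK1 and NK12 and of -0.62 with the GC trend removed (permutation p = 0.0351, adjusted p = 0.328). The 2 genes that passed the genotype test, Clk1 and Clk4, had r of 0.60 (permutation p = 0.0712, adjusted p = 0.332) and rho of 0.55 (permutation p = 0.098, adjusted p = 0.396), and r of 0.37 without NK1 and NK12. With the GC trend of each library removed, r of Clk1 and Clk4 was 0.06 (permutation p = 0.866, adjusted p = 0.97).

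By the same measure, r of log2 CPM with the mean of each label removed over 12 libraries, the features most like Clk1 were Gm45324 (0.94), Dsg1c (0.94) and Prkdc (0.93), none of which passed the genotype test. Gm45324 and Dsg1c had mean levels of 0.503 and 0.456 CPM, close to the filter. Most like Clk4 were Slc26a2 (0.94), Metap2 (0.94) and Srsf11 (0.93), the last of which passed the genotype test. These are the highest of 13901 values, each over only 12 libraries, and were not tested. The GC content of the named features ran from 37.0% (Gm45324) to 44.4% (Slc26a2), and likeness was not computed again with the GC trend removed. Clk4 was at rank 716 of 13901 features in likeness to Clk1, and Clk1 at rank 731 in likeness to Clk4. Prpf4b, at rank 132, was the kinase most like Clk4, and Clk2, at rank 13693, was among the least like Clk1.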

How the data were processed

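Per the methods, total RNA of striatum was depleted of ribosomal RNA, made into directional libraries and sequenced from 1 end. The sample labels instead name the molecule as polyA RNA, and this conflict could not be settled here. Per the submitters' processing notes and the methods, the authors trimmed reads with cutadapt 4.1, aligned them to GRCm39 with STAR 2.7.11b and obtained gene counts with featureCounts 2.0.6 (GENCODE M35). The deposited values are raw whole-number counts as the authors made them, next to the merged exon length. A further 12 columns of per-library values were not used. The strand setting is not given in the sources used here.

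Features that reached 0.5 CPM in 3 or more libraries were compared between 6 libraries labelled TAAR5-KO and 6 labelled WT, without covariates, with TMM factors and the likelihood ratio test of edgeR 4.0.16 (R 4.3.3), the test of the study, at a Benjamini–Hochberg adjusted p under 0.1 over all features. Standard errors came from the same fit, and 95% intervals are 1.96 SE. The quasi-likelihood test and DESeq2 1.42.0 were alternatives, beside other scalings, filters, a stricter threshold (0.05), removal of ribosomal RNA features, the ribosomal RNA share as a covariate, loess trends (span 0.5) on GC content or length, and leaving out each library. Log2 CPM had a prior count of 2. Values per library were tested by exact enumeration, and correlations by 100000 permutations within labels, both two-sided. P-values measure the spread between libraries, which come from different mice per the labels. The counts outside ribosomal RNA, 1819907 to 6399188 per library of totals of 11269915 to 34824450, bear the precision, and a zero count allows up to 3 counts.

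On simulated data for this comparison with 13902 features and 200 of them altered, the likelihood ratio test recovered 38.7% of 62 features at a log2 change of 0.5 and 85.7% of 70 at 1, with 33 false calls among 184, and the quasi-likelihood test made 13 false calls among 155. Annotation came from GENCODE M39 on GRCm39. The members and all lists were chosen with earlier results of these data known. Named were all 8 kinases, genes of the pathway and nuclear lists past the threshold, the 3 features most like each called kinase, and genes overlapping a kinase. Son, Srrm2, the related kinases and the nuclear RNAs not past the threshold were named after their values were seen.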

Additional observations from a re-analysis of the deposited data

Results flagged for a closer look

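In 2 of the 16 groups of 6 libraries examined (8 kinases, 2 genotype labels), the library at the end of the range stood far from the others, with a gap, as a share of the range of the group in log2 CPM, above the critical value of Dixon's test, which chance gives in about 1 of 20 groups. Prpf4b (Prp4k) had 17.1 CPM in NK1, labelled TAAR5-KO, with the other 5 libraries of the label below 13.5 CPM (gap of 0.788 of the range). NK1 is also the library with the lowest GC slope (-0.219). Srpk2 had 29.5 CPM in NK10, the lowest library labelled WT (gap of 0.727 of the range), and NK10 had the fewest counts outside ribosomal RNA (1819907). Without NK1 the log2 fold change of Prpf4b was 0.10 (adjusted p = 0.844), and without NK10 that of Srpk2 was 0.06 (adjusted p = 0.867, likelihood ratio test of edgeR), so that neither passed the test in either case.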

How the results depend on the processing

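Clk1 and Clk4 passed under 22 of 23 alternatives, including the quasi-likelihood test, DESeq2, the GC trend removed and every library left out. Library size as the only scaling gave 0 of the 8 kinases past the threshold, and log2 fold changes of -0.32 for Clk2, -0.26 for Clk3, -0.33 for Srpk1, -0.44 for Srpk2, -0.50 for Dyrk1a and -0.30 for Prpf4b, where the median of all features was -0.49. With the GC trend removed Srpk2 was at -0.015. With each library left out in turn 2 kinases passed every time, with log2 fold changes of 0.50 to 0.62 for Clk1, 0.40 to 0.52 for Clk4, 0.0014 (without NK6) to 0.19 (without NK1) for Clk2, 0.12 to 0.25 for Clk3, 0.11 to 0.21 for Srpk1, 0.06 to 0.14 for Srpk2, 0.02 to 0.09 for Dyrk1a and 0.10 to 0.22 for Prpf4b, and the log2 ratio of Clk1 and Clk4 over the other kinases differed by 0.36 to 0.45.

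Of the 40 pathway genes 2 passed in the main test, 1 by the quasi-likelihood test, 1 without a filter and 0 with library size as the only scaling. Leaving out a library gave 1 to 5, with 1 without NK11, 4 without NK9 and 5 without NK4 or NK8, and the cause was not tested. Of the 28 pairs of kinases none was past an adjusted p of 0.05, against 28 with library size as the only scaling, which leaves the shared shift of each library in every gene, and 0 to 1 with a library left out, the 1 without NK7. The number of features called over all genes was 229 in the main test, 63 by the quasi-likelihood test, 177 by DESeq2, 7 with library size as the only scaling, 93 without a filter, 98 with the ribosomal RNA share as a covariate, 86 with the GC trend removed and 85 to 415 with a library left out.

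No paired analysis was possible because the columns of the count table carry library numbers and not the animal numbers of the labels. Depth limits Clk2 most, with 15 to 114 counts in a library, and a log2 change of 0.5 was recovered in 38.7% of altered features on simulated data.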
